A study of Mus musculus with 3 samples.

Results

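Scavenger receptors are cell surface proteins with which tissue macrophages take up modified lipoproteins, glycoproteins, hyaluronan, hemoglobin complexes, folate, and microbial products. The 10 genes examined were Mrc1, Cd163, Msr1, Marco, Stab1, Lyve1, Folr2, Cd68, Cd14, and Scarb1. They were listed by name, and their probes were found through the RefSeq transcript that the array files give for each probe. In total 9 of the 10 genes were found, with 11 of the 55681 non-control probes on the array, which cover 19752 named genes. No probe was matched to Cd68, which encodes a lysosomal glycoprotein of macrophages, and it was not analyzed here.

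The cells were isolated by FACS from the backskin of CD1 mice as positive for CD11b and for the macrophage antigen that Adgre1 encodes, and negative for Gr1, and are labeled as skin resident macrophages. Samples were taken at postnatal day 42 (early telogen, Te), day 55 (mid telogen, Tm), and day 69 (late telogen, Tl), that is, in the resting phase of the hair cycle, without any treatment. RNA was pooled from 3 littermate mice per stage, amplified, labeled with Cy3, and hybridized to 1 Agilent array per stage. No stage had a replicate array, so that no difference between stages could be tested, and all differences below are descriptions of 3 arrays. The paper places Te slightly later than the day 42 of the sample labels.

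In skin and other tissues, resident macrophages that lie along blood vessels commonly carry Lyve1, Folr2, Cd163, and Mrc1, and are known for uptake of macromolecules from the interstitial fluid. Msr1 and Marco belong to class A scavenger receptors, which bind modified lipoproteins and bacterial surfaces. Cd163 binds complexes of hemoglobin and haptoglobin, Stab1 clears the matrix protein SPARC and other ligands, and Folr2 binds folate. Cd14 delivers lipopolysaccharide to Toll-like receptors, and Scarb1 (SR-BI) exchanges cholesterol with high density lipoprotein.

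Levels are given as log2 of the background-corrected signal of a probe relative to the 75th percentile of its array, so that 0 is the level at that percentile. On the day 42, 55, and 69 arrays, between 59.6% and 71.4% of all probes were well above background by the software of the scanner, and no probe was saturated. Each receptor probe is printed as 1 spot per array, and its technical error was therefore taken from the 20 probes with 10 or more spots whose signal was closest to it. This spot SD covers the printing and reading of 1 array, and not how mice, cell sorts, or amplified RNAs differ. The deposited table of processed values carries the arrays of day 55 and day 69 under exchanged names. Its day 69 column followed the day 55 scanner file to within an SD of 0.0057 (log2) at 36390 probes. The scanner files are used here as they are assigned to the samples. Values of both later arrays are given for each gene, so that each result can be read under either assignment.

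Marco, Cd163, and Msr1 were lower by more than 2-fold on each later array. Mrc1, Stab1, and Folr2 were somewhat lower on the day 55 array and were at their day 42 level on the day 69 array. Lyve1 was about 4 times as high on the day 69 array as on either of the others.

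For the day 69 array, 3 of the 9 receptors were at least 2-fold lower than on the day 42 array and 1 was at least 2-fold higher. Of all 16178 genes with a value in this comparison, 20.7% were at least 2-fold lower and 22.7% at least 2-fold higher. For the day 55 array, 3 receptors were at least 2-fold lower and 0 higher, compared to 16.9% and 29.4% of 15851 genes. The downward counts rest on 3 genes, and no difference from all genes is drawn from them. With another background correction (normexp), 2 receptors were at least 2-fold lower at day 69, compared to 20.1% of all genes. The median change of the 9 receptors was -0.44 on the day 69 array and -0.62 on the day 55 array, while the median over all genes was 0.16 and 0.23, respectively. In each comparison 8 of 9 receptors had a change below 0, whereas 55.2% and 55.9% of all genes had a change above 0. At day 69 these receptors include Mrc1, Stab1, and Folr2, each within its spot SD, and Scarb1, whose change depends on the probe. Both comparisons share the day 42 array. These signs depend on the scaling. When each array was scaled to its median, 4 receptors were below 0 on the day 69 array and 7 on the day 55 array, and without scaling 2 and 8 were. Relative to the median of all genes, 8 receptors were lower on the day 69 array with any of these 3 scalings. With normexp correction, or without a filter on dim probes, 6 were.

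**Figure D1:**
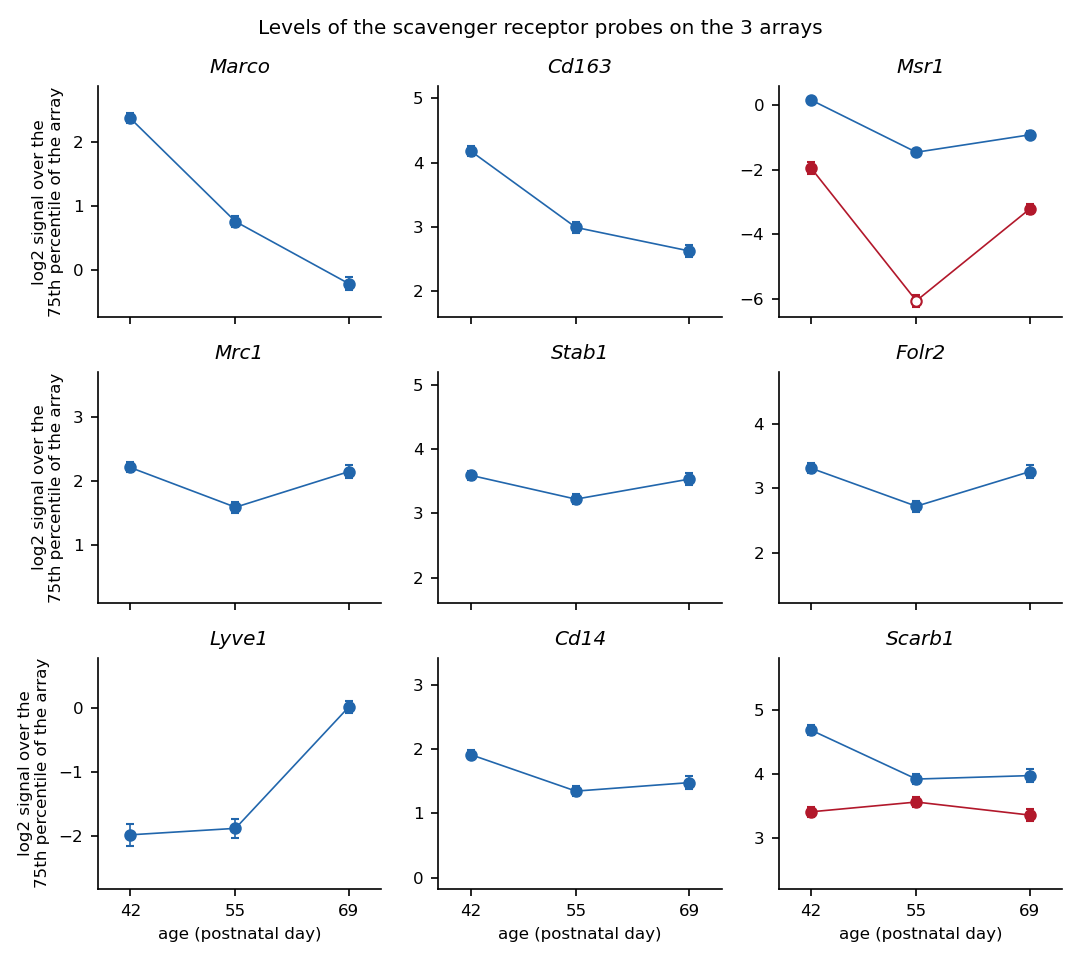
Level of each receptor probe on the 3 arrays (y axis, log2 signal over the 75th percentile of the array; x axis, postnatal day), with 1 panel per gene, its own y axis, and a second line in red where a gene has a second probe. Bars are the spot SD, the open point is a signal not well above background, and Marco and Cd163 go down over both later arrays, whereas Lyve1 goes up at day 69.

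Marco, Cd163, and Msr1 had the lowest changes at day 69 and at day 55 among the receptors. Marco, on chromosome 1 (120474538 to 120505024, GRCm38.p6), had a level of 2.36 on the day 42 array, 0.76 on the day 55 array, and -0.21 on the day 69 array. The level was thus highest at day 42, and each array differed from the next by several times the spot SD of 0.11 to 0.13. Its change from day 42 was -1.61 at day 55 and -2.57 at day 69, which is a 3.04-fold and a 5.95-fold lower signal. Of the 14141 genes well above background on both the day 42 and the day 69 array, 135 had a lower change than Marco.

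Cd163, on chromosome 6 (124304636 to 124330529), had levels of 4.18, 2.99, and 2.63 at days 42, 55, and 69. The day 42 array was highest, and the change from day 55 to day 69 was -0.37 (spot SD 0.13). The signal was 2.28-fold lower at day 55 (log2 -1.19, spot SD 0.11) and 2.94-fold lower at day 69 (-1.55, spot SD 0.12).

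Msr1, on chromosome 8 (39543232 to 39642750), is covered by 2 probes. The brighter probe had levels of 0.16, -1.46, and -0.92 at days 42, 55, and 69, and was lowest at day 55. Its signal was 3.07-fold lower at day 55 (log2 -1.62, spot SD 0.15) and 2.11-fold lower at day 69 (-1.08, spot SD 0.16). The dimmer probe had levels of -1.95 and -3.22 at days 42 and 69, and was not well above background at day 55. Its signal was 2.41-fold lower at day 69 (-1.27, spot SD 0.23) and at least 4.27-fold lower at day 55. Both probes were therefore lower on each later array, with the lowest signal on the day 55 array.

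The Mrc1, Stab1, and Folr2 probes moved alike across the arrays. Mrc1, which encodes the mannose receptor CD206 and lies on chromosome 2 (14229414 to 14332023), had levels of 2.21, 1.59, and 2.15 at days 42, 55, and 69. Stab1, on chromosome 14 (31139017 to 31168651), had levels of 3.59, 3.22, and 3.53. Folr2, on chromosome 7 (101839988 to 101857190), had levels of 3.32, 2.72, and 3.26. In all of them the day 55 array was lowest and the day 42 and day 69 arrays were nearly equal. The changes at day 69 were -0.06 for Mrc1, -0.06 for Stab1, and -0.05 for Folr2, each within its spot SD of 0.12 to 0.13. For comparison, 10.5% of all genes had a change smaller than 0.17 between these arrays. That limit is a common spot SD from all probes with 10 or more spots, and is wider than the SD of these receptors. The changes at day 55 were -0.62, -0.37, and -0.59, which exceed the spot SD of 0.11 by more than 3 times. These values follow the scaling of the arrays. With each array scaled to its median, the changes at day 55 were -0.060 (Mrc1), 0.19 (Stab1), and -0.033 (Folr2), so that the lower signal at day 55 was lost and the sign of Stab1 turned, and the changes at day 69 were 0.46, 0.46, and 0.47. Without scaling, the 3 genes had changes of 1.10 (Mrc1), 1.10 (Stab1), and 1.11 (Folr2) at day 69, so that they still moved alike but with a higher signal on the day 69 array.

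Promoters are shown for members of these groups, Marco and Cd163 as genes with lower signals on both later arrays, and Mrc1 and Stab1 as genes that moved alike. Each sequence is from RefSeq (GRCm38.p6), runs 5′ to 3′ on the strand of the gene, and covers 250 bases before and 50 bases after its start site. Capitals mark the core of sites of PU.1 (GAGGAA), the factor encoded by Spi1 that is required for macrophage development, a short motif of MAF factors (TGCTGA), and AP-1 sites (TGANTCA), on either strand. The windows are chr1:120504975-120505274 on the minus strand for Marco, chr6:124304401-124304700 on the plus strand for Cd163, chr2:14229164-14229463 on the plus strand for Mrc1, and chr14:31168592-31168891 on the minus strand for Stab1.
Marco: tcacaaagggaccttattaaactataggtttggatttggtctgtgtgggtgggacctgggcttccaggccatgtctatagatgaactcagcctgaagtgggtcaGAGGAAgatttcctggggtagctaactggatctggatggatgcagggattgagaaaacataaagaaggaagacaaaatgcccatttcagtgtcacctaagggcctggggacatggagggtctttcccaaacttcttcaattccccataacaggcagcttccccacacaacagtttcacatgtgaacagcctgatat
Cd163: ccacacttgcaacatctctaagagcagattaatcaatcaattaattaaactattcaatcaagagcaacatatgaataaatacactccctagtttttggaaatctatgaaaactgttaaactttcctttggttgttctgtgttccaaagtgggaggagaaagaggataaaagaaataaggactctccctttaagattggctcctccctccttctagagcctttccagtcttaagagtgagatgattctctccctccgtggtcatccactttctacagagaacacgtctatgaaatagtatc
Mrc1: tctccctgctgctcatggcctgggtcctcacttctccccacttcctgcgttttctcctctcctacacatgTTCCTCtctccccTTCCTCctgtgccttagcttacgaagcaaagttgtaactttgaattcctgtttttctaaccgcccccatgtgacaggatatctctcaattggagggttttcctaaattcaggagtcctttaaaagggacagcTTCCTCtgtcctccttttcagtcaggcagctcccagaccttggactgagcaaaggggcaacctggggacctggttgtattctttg
Stab1: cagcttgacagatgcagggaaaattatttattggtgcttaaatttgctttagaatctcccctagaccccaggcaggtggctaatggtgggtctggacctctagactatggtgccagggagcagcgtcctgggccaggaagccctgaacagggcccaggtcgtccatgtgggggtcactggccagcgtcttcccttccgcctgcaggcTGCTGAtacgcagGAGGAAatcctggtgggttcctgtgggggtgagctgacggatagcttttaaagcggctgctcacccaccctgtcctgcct

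The Marco window held 1 PU.1 core, which starts 146 bases before the start site. The Mrc1 window held 3, all on the opposite strand, at 180, 167, and 35 bases before the start site. The Stab1 window held 1 PU.1 core at 30 bases and 1 MAF motif at 43 bases before the start site. No PU.1 core or MAF motif was found in the Cd163 window, and no AP-1 site in any of the 4. Each of the windows listed for Folr2 held 1 MAF motif and no PU.1 core, and 1 of them also held 1 AP-1 site. Of 32851 promoters of this length in the table, 28.3% held a PU.1 core, 19.5% a MAF motif, and 7.81% an AP-1 site, on either strand. These are matches of letters, and binding was not measured. The table has no entry for Msr1, Lyve1, Cd14, or Scarb1.

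Lyve1 had the largest increase among the receptors. It encodes a hyaluronan receptor of resident macrophages and of lymphatic endothelium, and lies on chromosome 7 (110850607 to 110862953). Its level was -1.98 at day 42, -1.88 at day 55, and 0.01 at day 69, with the signal well above background on all arrays. The first levels differ by less than the spot SD of their difference of 0.22, and the day 69 array stands apart. The signal was 3.97-fold higher at day 69 than at day 42 (log2 1.99, spot SD 0.20) and 3.70-fold higher than at day 55 (log2 1.89, spot SD 0.17). Of the genes well above background on both arrays, 664 of 14141 had a higher change than Lyve1 from day 42 to day 69, and 113 of 13520 from day 55 to day 69. In the table of processed values, the same increase stands in the day 55 column.

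Because lymphatic endothelium also carries Lyve1, its other markers were examined on the same arrays. Of 6 such genes, 3 were well above background on the day 69 array, compared to 4 on each of the other arrays. Prox1, the transcription factor that defines lymphatic endothelium, was well above background only on the day 55 array. Of the list's other genes, all chosen here after their values were seen, Mmrn1 was above background on no array, Reln only at day 42, and Ccl21a on all, with levels of -3.85, -2.23, and -3.24 at days 42, 55, and 69. Flt4, which encodes the receptor VEGFR3, had levels of -0.83, -1.48, and -1.41 at days 42, 55, and 69. Pdpn, which encodes podoplanin and is not limited to lymphatic vessels, had levels of -0.99, 0.66, and 0.52. The log2 of the summed signal of the list was 0.34, 1.24, and 0.99, of which Pdpn gave the largest share on the later arrays. The part of lymphatic cells in the change of Lyve1 was not tested.

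**Figure D2:**
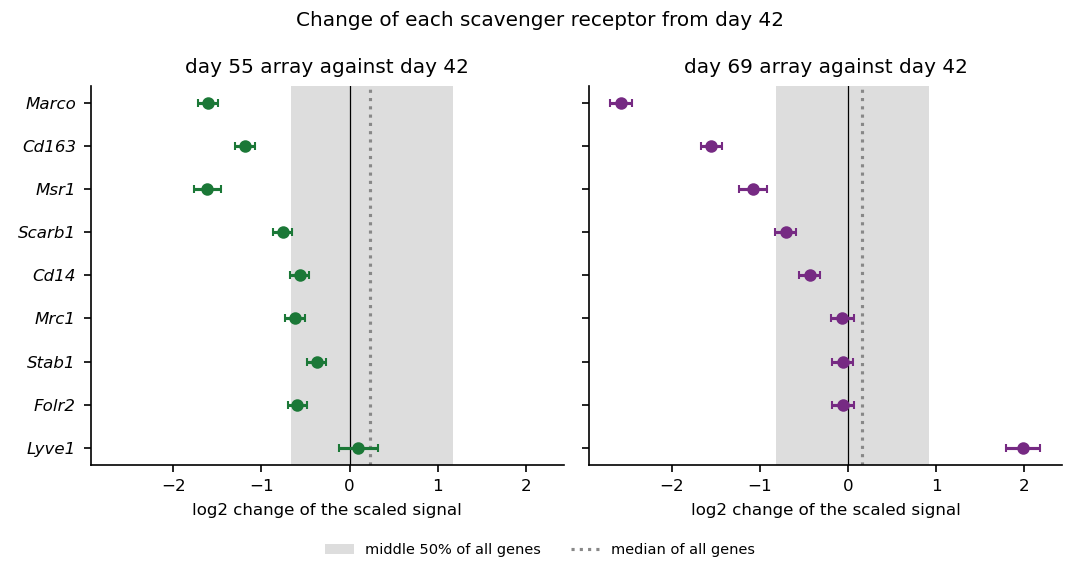
Log2 change of each receptor from the day 42 array (x axis) for the day 55 array (left) and the day 69 array (right), by the brightest probe of each gene. Bars are the spot SD of the change and the gray band is the middle 50% of all genes, below which Marco, Cd163, and Msr1 lie in both panels, while Lyve1 lies above it at day 69.

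Cd14 and Scarb1 had smaller differences between the arrays than Marco, Cd163, and Msr1. Cd14 had levels of 1.91, 1.35, and 1.48 at days 42, 55, and 69, and was highest at day 42. Its change was -0.57 at day 55 (spot SD 0.11) and -0.44 at day 69 (spot SD 0.12). The later arrays differed by 0.13, which is about 1 spot SD. Without scaling, the change of Cd14 at day 69 was 0.73.

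Scarb1, on chromosome 5 (125277087 to 125341094), is covered by 2 probes of the same transcript that did not move alike. The brighter probe had levels of 4.68, 3.92, and 3.97, with a change of -0.76 at day 55 and -0.71 at day 69 (spot SD 0.10 and 0.12). The other probe had levels of 3.41, 3.56, and 3.36, with changes of 0.15 and -0.05, within 2 spot SD (0.11 and 0.12). The change of Scarb1 thus depends on the probe, and no direction is given for the gene.

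Between the later arrays, 1 of 9 receptors was at least 2-fold higher at day 69 than at day 55 (Lyve1) and 0 were at least 2-fold lower, compared to 8.14% and 11.3% of 14869 genes. The median difference was 0.31 for the receptors and -0.14 for all genes. The changes of Mrc1 (0.55), Msr1 (0.54), Folr2 (0.54), and Stab1 (0.31) were above 0. Those of Cd14 (0.13) and Scarb1 (0.05) were within 2 spot SD. Marco was lower by 1.95-fold at day 69 than at day 55 (log2 -0.97), and Cd163 had a change of -0.37. Exchanging the assignment of these arrays turns all of these signs.

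To place the receptors among related genes, 20 other scavenger receptors were examined. Of the 18 with a value, 4 were at least 2-fold higher and 3 at least 2-fold lower at day 69, and 3 were higher and 4 lower at day 55. Their medians were -0.22 and -0.60, close to those of the members at day 55. Cd5l, which encodes a secreted protein of tissue macrophages with scavenger receptor domains, had levels of -3.45, -1.39, and 0.07 at days 42, 55, and 69. This is a change of 2.06 at day 55 and 3.52 at day 69, the highest of the list on both arrays. Scara5, a class A receptor picked after its values were seen, had the lowest change at day 55 (-2.36). Cxcl16, a membrane-bound chemokine that also binds oxidized lipoprotein, had changes of 1.99 and 1.85. Cd6, which has scavenger receptor domains and is known from T cells, had changes of -1.57 and -1.94. Stab2 and Colec12 were picked after their values were seen. Stab2, the relative of Stab1 that clears hyaluronan, had changes of 0.47 and 1.02. Colec12, a class A receptor, had changes of -0.90 and 0.85. Scara3, a further class A receptor picked after its values were seen, had changes of 0.40 and 0.64. The class A receptors thus did not all move the same way on either later array.

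Genes that act with the receptors were also examined. Among 10 genes of lipopolysaccharide recognition with Cd14, 0 were past 2-fold at day 69, and 1 was higher and 0 were lower at day 55, with medians of 0.45 and 0.26. Ly96, which encodes the MD-2 partner of TLR4, had changes of 0.46 at day 55 and 0.73 at day 69. Tlr4 had levels of -3.26 at day 42 and -3.24 at day 69, and was not well above background at day 55. Cd14 was therefore lower on arrays on which Ly96 was higher.

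Of 10 genes that handle hemoglobin and heme, 1 was higher and 1 lower at day 69, and 2 were higher and 3 lower at day 55, with medians of -0.15 and 0.38. Hmox1, which encodes the heme-degrading enzyme heme oxygenase 1, had levels of 4.17, 3.05, and 3.39 at days 42, 55, and 69. It was highest at day 42, as was Cd163, with changes of -1.12 and -0.78. Lrp1, a receptor for heme bound to hemopexin, had a change of -1.03 on both later arrays. Hp, which encodes the haptoglobin that Cd163 recognizes, had changes of 1.56 and 1.13. For cholesterol exchange with SR-BI, 9 of 10 genes had a value, of which 1 was higher and 1 lower at day 69, and 2 were higher and 1 lower at day 55, with medians of -0.13 and 0.52. Apoe, which encodes apolipoprotein E, had changes of 0.03 and -0.50.

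**Figure D3:**
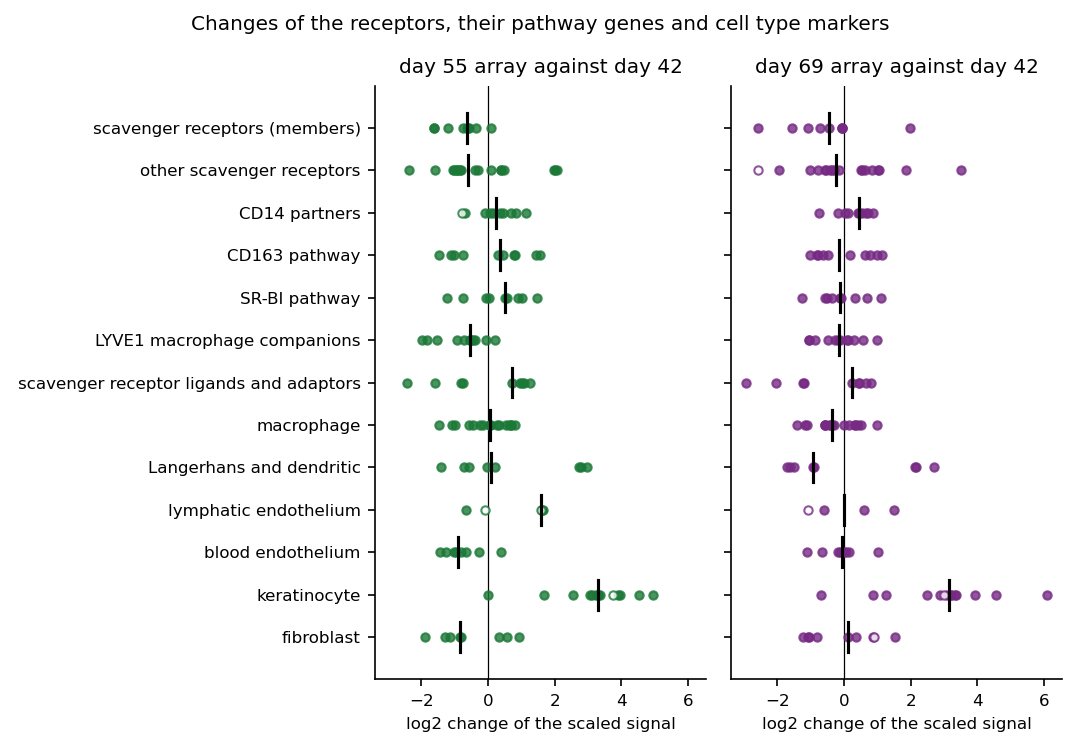
Log2 change from the day 42 array (x axis) for each gene of the lists (rows) on the day 55 array (left) and the day 69 array (right). Points are genes, open points are lower bounds of the size of the change, and the black lines are medians, of which that of the keratinocyte row lies farthest to the right.

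Of 12 genes commonly expressed with Lyve1, Folr2, and Cd163 in perivascular macrophages, all were well above background on the 3 arrays. At day 69, 0 were at least 2-fold higher and 2 at least 2-fold lower, with a median of -0.13. At day 55, 0 were higher and 3 lower, with a median of -0.54. Of the genes of this list named here, all were chosen after their values were seen. The genes past 2-fold at day 55 were Ednrb (-1.97), Maf (-1.81), and F13a1 (-1.53), with changes of 0.10, -0.17, and -0.87 at day 69. Maf encodes a transcription factor of resident macrophages, and Ednrb the endothelin receptor B. Cbr2 and Selenop were past 2-fold at day 69 (-1.05 for both), with changes of -0.71 and -0.52 at day 55. Timd4, which encodes a phosphatidylserine receptor of long-lived resident macrophages, had levels of -0.64, -1.08, and 0.36. Like Lyve1 it was highest at day 69, with a change of 1.00, which is just short of 2-fold.

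Of 10 ligands and adaptors of the receptors, 9 had a value, of which 0 were higher and 4 lower at day 69, and 3 were higher and 2 lower at day 55, with medians of 0.24 and 0.71. Has2, the enzyme that makes the hyaluronan bound by Lyve1, had levels of 7.43, 5.01, and 4.50 at days 42, 55, and 69. Its changes of -2.42 and -2.92 were opposite in sign to that of Lyve1 at day 69. Gulp1, which encodes an adaptor of stabilin and of other engulfment receptors, had changes of -1.58 and -2.03.

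The identity of the sorted cells and the other cells of the skin were followed with marker lists. All 17 macrophage genes other than the members were well above background on the 3 arrays. Of these, 0 were at least 2-fold higher and 3 at least 2-fold lower at day 69, and 0 were higher and 2 lower at day 55, with medians of -0.35 and 0.07. Of the genes behind the sort, Adgre1 had changes of 0.69 at day 55 and 0.33 at day 69, and Itgam (CD11b) of -0.23 and -1.10. Csf1r, the receptor for macrophage colony-stimulating factor, had changes of 0.70 and 0.16. Each array was also centered on the median level of these 17 genes, which was 4.86, 5.51, and 5.15 at days 42, 55, and 69. This level rose further on each later array than the median change of the same genes (0.07 and -0.35). The counts with this centering depend on that choice. With it, 8 receptors were at least 2-fold lower at day 55 and 3 at day 69. Of all genes, 33.69% and 27.24% were then at least 2-fold lower. At day 69, 1 receptor (Lyve1) was at least 2-fold higher with this centering, and 0 were at day 55, compared to 15.39% and 13.25% of all genes.

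Markers of other cells moved between the same arrays. Keratinocyte markers were higher, with 12 of 14 genes past 2-fold at day 69 (median 3.15) and 13 at day 55 (median 3.29). Krt5 had changes of 3.97 and 3.32 at days 55 and 69, Krt14 of 3.13 and 2.88, and Krt15 of 3.91 and 3.35. The log2 of the summed signal of this list was 8.09, 8.60, and 8.01 at days 42, 55, and 69, and was dominated by a probe of Trp63 that was not higher on the later arrays. Of the Langerhans and dendritic cell genes, 3 of 8 with a value were at least 2-fold higher and 3 lower at day 69, and 3 were higher and 1 lower at day 55, with medians of -0.92 and 0.09. The genes at least 2-fold higher on both later arrays were the Langerhans cell marker Cd207 (2.99 at day 55 and 2.13 at day 69), Epcam (2.80 and 2.71), and Itgax (2.73 and 2.17). The lower genes were named after their values were seen. Batf3 was at least 2-fold lower on both (-1.41 and -1.62), and Cd209a (-0.58 and -1.51) and Ccr7 (0.22 and -1.70) only at day 69. The log2 of the summed signal of this list was 5.62, 7.37, and 6.64. Since the arrays measure a population, fewer cells that express a receptor and less RNA of it per cell cannot be told apart. The part of these other cells in the changes of the receptors was not tested.

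Of 8 blood endothelial genes, which matter for Stab1 and Lyve1, 1 was higher and 1 lower at day 69, and 0 were higher and 3 lower at day 55, with medians of -0.05 and -0.89. Pecam1 had changes of -0.95 and -0.19 at days 55 and 69, Cdh5 of -0.28 and 1.02, and Kdr of -1.27 and 0.15. Several of them were thus lowest on the day 55 array, on which Mrc1, Stab1, and Folr2 were also lowest. Of the fibroblast genes, 1 was higher and 3 were lower at day 69, and 0 were higher and 3 lower at day 55, with medians of 0.13 and -0.83. Col1a1 had changes of -0.82 and -1.24, Col1a2 of -0.85 and -0.80, and Col3a1 of -1.15 and -1.05. The part of these cells in the changes of the receptors was not tested. The lymphatic list had 1 gene higher and 1 lower among 4 with a value at day 69, and 3 higher and 0 lower among 5 at day 55, with medians of 0.01 and 1.59.

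The smaller lists had the following medians at day 55 and day 69: -0.41 and -0.88 for adipocyte genes, 0.79 and 0.65 for neutrophil genes, and -0.56 and 0.07 for mast cell genes. Of 6 T cell genes, 2 were at least 2-fold higher and 0 lower at day 55, and 3 were higher and 1 lower at day 69, with medians of 0.71 and 0.43. Cd3e, which encodes a chain of the T cell receptor complex, had changes of 4.20 and 3.08 at days 55 and 69. Cd3d had changes of 0.71 and -0.17, and Cd3g of 0.71 and 1.025. The other genes of the list were named after their values were seen. Cd2 had changes of 2.58 and 2.09, whereas Lck (-0.78 and -0.69) and Cd28 (-0.90 and -1.11) were lower on both later arrays. The part of T cells in the changes of the receptors was not tested. Of 10 genes used by every cell, 4 were at least 2-fold higher and 0 lower in each comparison, with medians of 0.76 and -0.00. Those 4, named after their values were seen, were Hprt (1.23 at day 55 and 1.66 at day 69), Tbp (1.42 and 1.81), Sdha (1.17 and 1.08), and Pgk1 (1.57 and 1.07), while Actb had changes of 0.16 and -0.98. Genes commonly used as references thus differed between the arrays by amounts like those of several receptors. Of the neutrophil genes, 5 of 8 with a probe were well above background on each array, and Elane on none. At day 55, 2 of 6 with a value were at least 2-fold higher and 0 lower. At day 69, 2 of 5 were higher and 1 lower. Retnlg (1.71 and 1.16) and Cxcr2 (2.16 and 1.34), named after their values were seen, were higher on both later arrays. S100a8 had changes of 0.66 and 0.65 at days 55 and 69, and S100a9 of 0.001 and -0.29.

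**Figure D4:**
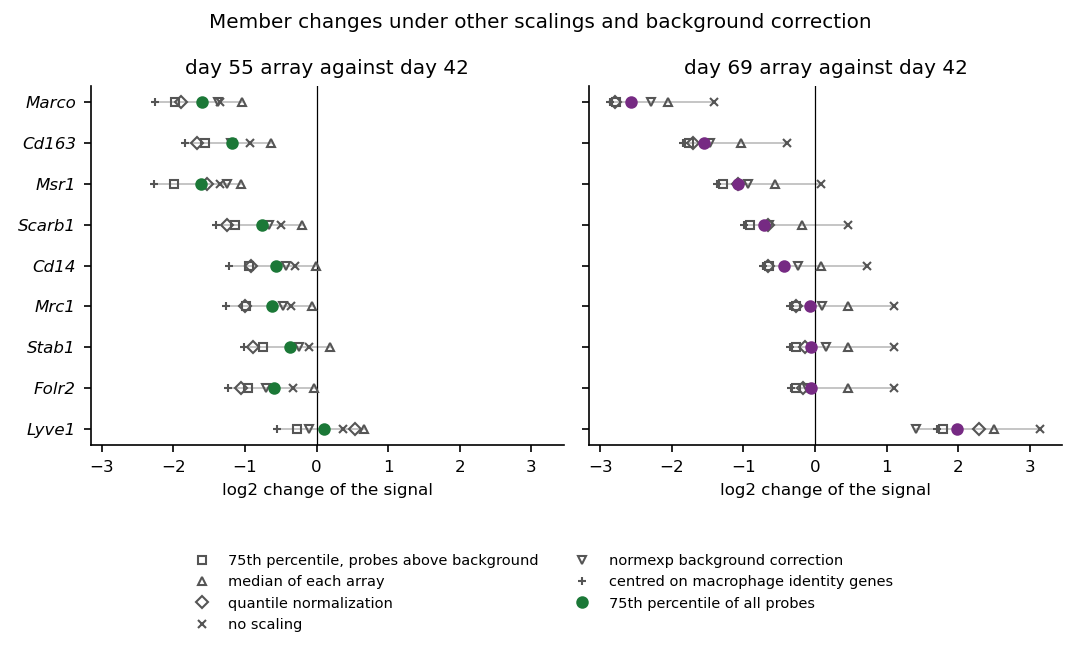
Log2 change of each receptor from the day 42 array (x axis) for the day 55 array (left) and the day 69 array (right) as reported (filled circles) and under other scalings and background correction (open or line symbols). Marco and Cd163 stay below 0 and Lyve1 at day 69 stays above 0 under all settings drawn, while the day 69 values of the other receptors lie on both sides of 0.

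Under 11 other settings of scaling, background correction, filter, and probe choice, the change of Marco at day 69 ranged from -2.86 to -1.41 and that of Cd163 from -1.84 to -0.39. At day 55 Marco ranged from -2.26 to -1.05, Cd163 from -1.84 to -0.63, and Msr1 from -2.27 to -1.06. Lyve1 ranged from 1.42 to 3.15 at day 69 and from -0.55 to 0.66 at day 55. These ranges leave out the exchange of the later arrays and the log2 table of the authors. In both of those the change of Lyve1 at day 69 was 0.10, and its increase stood at day 55. Msr1 at day 69 ranged from -1.36 to 0.09, with the one value above 0 found without scaling. Marco, Cd163, and Lyve1 each have 1 probe, which was well above background on all arrays. The settings of filter and probe choice therefore left their values the same or nearly so. Under the settings of scaling and background correction, Marco and Cd163 were lower on both later arrays. The sign of Lyve1 was the same under all of them only at day 69.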

How the data were processed

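For each stage 1 array was analyzed, with RNA pooled from 3 littermate mice and amplified before labeling with Cy3. The authors scanned the arrays and quantified them with Feature Extraction 10.7.3.1, which subtracts background, and deposited linear spot intensity values with no scaling across arrays. A second deposited file holds log2 values of 36409 probes, each centered on its median, whose normalization is not given in the sources used here. The medians of its columns were 0.36, 0, and 0 for days 42, 55, and 69, and it holds 5 of the 11 receptor probes.

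Control spots and outlier spots (162, 274, and 281 for days 42, 55, and 69) were left out, repeat spots were averaged, and processed signals were divided by the 75th percentile of their array and put on the log2 scale. A probe counted as well above background when the software called at least 0.5 of its spots so. With 1 signal well above background, the change is a lower bound against the lowest such signal of the other array, or the dim probe's own if higher. Probes were named through RefSeq transcripts (GRCm38.p6), which named 26056 of 55681 probes. Of several probes of a gene, the brightest on average stands for it. The main values need no test, and a change is counted from 2-fold. The paper's threshold for a changed probe set is 10-fold, which no receptor reached by its brightest probe. For the dimmer Msr1 probe at day 55, only a lower bound of 4.27-fold is known.

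The members and the lists were chosen with earlier results of these data known. Named genes are the members, up to 3 genes per pathway list with the largest change past 2-fold the same way on both later arrays, Tlr4, Ly96, Hmox1, Apoe, and the leading markers of each marker list, of which not all are printed. Trp63, Elane, Scara5, Mmrn1, Reln, Ccl21a, Cd2, Hprt, Tbp, Sdha, Pgk1, Actb, and genes said to be picked from their values are outside this rule. Alternatives were other scalings, normexp correction (limma 3.58.1, offset 50), the log2 table, other filters and probe rules, thresholds of 1.5-fold and 3-fold, and the exchange of the later arrays. Centering on macrophage genes was chosen after seeing the data. The steps were tested on simulated data. The number of arrays limits the precision. Python 3.11.15, numpy 2.4.6, and pandas 2.3.3 were used.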

Additional observations from a re-analysis of the deposited data

How the results depend on the processing

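The median change of the receptors at day 69 against day 42 was -0.44 and became -0.641 with the 75th percentile over probes above background on all arrays, 0.0851 with the median of each array, -0.65 with quantile normalization, 0.73 without scaling, -0.24 with normexp, -1.39 in the authors' table, -0.62 with the later arrays exchanged, and -0.72 when centered on macrophage genes. At day 55 it was -0.62 and became -0.991, -0.0605, -1.06, and -0.36 with the first 4 of these, -1.32 in the table, -0.44 with the exchange, and -1.27 when centered on macrophage genes. Between day 69 and day 55 it was 0.31 and became 0.479 (percentile over probes above background), 0.602 (quantile), 1.21 (no scaling), -0.083 (table), -0.312 (exchange), and 0.68 (macrophage genes). The table holds only some of the receptors. The median over all genes moved as well, from 0.16 to 0.66 with the median of each array and to 1.33 without scaling at day 69, where 60.6% of genes were then at least 2-fold higher and 3.72% lower, and 39.2% and 10.4% with the median of each array.

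Without scaling, 4 receptors were at least 2-fold higher and 1 lower at day 69 against day 42. Against day 55, 6 were at least 2-fold higher, compared to 36.2% of all genes. In the table and with the exchange, 0 were higher at day 69 in either comparison, 1 was higher at day 55, and 1 was lower at day 69 than at day 55, as was 1 with the median of each array or a 1.5-fold threshold. At day 55, 5 were lower with quantile normalization, 6 from 1.5-fold, and 8 when centered on macrophage genes. Of all genes, 14.06% were lower at day 55 with quantile normalization and 33.69% when centered on macrophage genes. At day 69, 1 was lower from 3-fold. The shares of all genes past 1.5-fold and 3-fold were not computed. Without scaling, 21 of 55 genes of the naming rule or picked later had the opposite sign at day 69 against day 42, 6 of the 9 receptors among them. Of genes past 2-fold, these were Msr1 (0.0853), Lrp1 (0.13), Itgam (0.0632), Col3a1 (0.12), Cbr2 (0.11), and Selenop (0.11). With quantile normalization Itgam turned (0.0843). With the exchange 11 of 55 turned in each comparison with day 42, and all 9 receptors did between the later arrays. Of genes past 2-fold, those that turned in the table and with the exchange were Cdh5 at day 69 (-0.28 in both), Kdr at day 55 (0.15 in both), Ednrb at day 55 (0.10 in both), and Lyve1 between the later arrays (-1.88 and -1.89). The cause of these differences was not tested. No paired analysis was possible because each stage has 1 array.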
